A study of Rattus norvegicus with 6 samples.

Results

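Immediate early genes are switched on within minutes when a cell is stimulated, without the need for new protein synthesis, and many of them encode transcription factors that drive later waves of expression. CArG boxes bound by serum response factor and TGACGTCA sites bound by CREB carry much of this induction, and the transcripts and proteins are short-lived. In skeletal muscle they are known to respond to contraction, stretch, injury, cytokines and the handling of the tissue. FOS and FOSB pair with JUN, JUNB or JUND to form the AP-1 factor, ATF3 is a stress-induced member of the same basic leucine zipper superfamily, EGR1 and KLF4 are zinc-finger factors, NR4A1 is an orphan nuclear receptor, MYC is a helix-loop-helix factor of growth, and IER2 is a small nuclear protein.

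The 10 genes named for this group were looked up by their gene symbol in the annotation of the array platform. Rows were found for 9 of them, Fos, Jun, Junb, Egr1, Atf3, Ier2, Nr4a1, Klf4 and Myc, out of 14506 genes measured. Fosb matched no row and was not analysed here. Klf4 had 2 rows, and the one with the higher mean over the 6 arrays was used.

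RNA came from gastrocnemius muscle of male Sprague-Dawley rats, a common outbred laboratory strain, and was hybridised to Affymetrix Rat Gene 1.0 ST arrays. All rats had been made obese by diet, were 12 weeks old at the start and 20 weeks old at tissue collection, and had free access for 8 weeks to a diet rich in fat and sucrose (4.6 kcal/g), in which protein supplied 10% of energy. The protein was casein in the control group, skim milk powder in the dairy group, and casein at 7.1% of energy plus leucine at 2.9% in the leucine group, with 2 arrays in each group. The design names 4 rats per diet, and the labels do not say whether an array is 1 rat or a pool, so errors and p-values reflect only the spread between these arrays, which may be technical. An SD is that of the 2 arrays of a diet, and an SE comes from a model that pools the spread over the 3 diets. Where a casein array is left out, that spread comes from the dairy and leucine pairs only.

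The values are log2 signals, so a difference of 1 is a 2-fold difference. The median over all rows lay between 3.46 and 3.56 on the 6 arrays. Fast-fibre transcripts, the main contractile set of gastrocnemius, summed to a log2 signal between 16.06 and 16.44 on every array, and the labelled tissue was thus present throughout, although some protocol texts of the labels speak of liver. The second casein array stood apart. Its mean correlation with the other arrays was 0.974, against 0.985 to 0.988 for the rest, and it was more than 2-fold above all the other 5 arrays in 177 genes, or 1.22% of those measured. Differences of single genes against casein, and the medians of lists, are therefore given with and without it, while the counts of list genes use all arrays. In a piece of whole muscle, fewer cells of a type and less RNA per cell cannot be told apart.

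The regulatory sequence upstream of 3 members is shown first, because these genes stood differently on the second casein array. Junb and Nr4a1 were 15.8-fold and 2.63-fold above the mean of their other values there, and Ier2 1.23-fold. The 250 bases before the RefSeq start are printed 5′ to 3′ from build GRCr8, all on the plus strand, and capitals mark TGACG, the core of the CREB site, on either strand, and the TATAAA box. The windows are chr19:40080876-40081125 for Junb, chr7:134259888-134260137 for Nr4a1 and chr19:40399123-40399372 for Ier2.
Junb: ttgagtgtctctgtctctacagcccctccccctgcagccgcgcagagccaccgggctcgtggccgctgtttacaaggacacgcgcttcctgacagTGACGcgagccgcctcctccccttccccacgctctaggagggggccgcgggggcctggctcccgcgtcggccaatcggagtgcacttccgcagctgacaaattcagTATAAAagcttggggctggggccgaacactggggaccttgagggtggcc
Nr4a1: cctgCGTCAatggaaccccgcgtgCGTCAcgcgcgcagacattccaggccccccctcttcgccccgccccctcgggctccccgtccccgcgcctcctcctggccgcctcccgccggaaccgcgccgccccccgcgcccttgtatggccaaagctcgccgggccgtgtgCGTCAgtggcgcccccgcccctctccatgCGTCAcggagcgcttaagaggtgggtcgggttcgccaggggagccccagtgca
Ier2: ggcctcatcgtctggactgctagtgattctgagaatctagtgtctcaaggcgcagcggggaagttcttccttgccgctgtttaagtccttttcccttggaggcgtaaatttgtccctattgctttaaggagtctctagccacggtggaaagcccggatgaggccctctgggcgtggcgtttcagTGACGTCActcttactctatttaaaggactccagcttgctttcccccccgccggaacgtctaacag

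The printed Nr4a1 window held 4 copies of TGACG, a number reached in 0.173% of the 33469 rat promoters of the same length, and Junb held 1, which 18.2% of promoters reach. Ier2 held the full palindrome TGACGTCA, present in 1.59% of promoters, within which TGACG occurs on both strands. The Junb window also held TATAAA, found in 12.9% of promoters. Egr1, whose window is not printed, held 2 CArG boxes, the nearer of them 74 bases before the start. This serum response motif is found in 1.5% of promoters, and in 2 or more copies in 0.0209%. Egr1 also held TGACG in 2 copies, a number reached in 3.98% of promoters. The AP-1 site itself, TGANTCA, was searched on both strands, is found in 6.34% of promoters, and was not in the windows of these 4 genes or of Fosb and Klf4. A match describes letters and not occupancy. RefSeq windows were at hand for 6 of the 10 genes, and Fos, Jun, Atf3 and Myc are named only.

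Junb and Fos, both AP-1 genes, had the widest ranges over the 6 arrays, 4.50 and 3.37. Fos, whose protein forms AP-1 only as a partner of a JUN protein, stood at 4.29 and 7.48 on the casein arrays, 4.12 and 4.79 on the dairy arrays and 4.11 and 4.29 on the leucine arrays. A single casein array was thus high, and the other 5 arrays of all 3 diets fell within 0.68 of each other. The second casein array was 8.91-fold above the mean of the other 5, an excess surpassed by 22 of the 14506 genes.

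Junb, the JUN protein that often restrains growth, had the same pattern on a larger scale. It stood at 5.09 and 9.19 with casein, at 5.59 on both dairy arrays, and at 4.69 and 5.07 with leucine. The second casein array was 15.8-fold above the mean of the other arrays, and 6 of all genes measured had a larger excess there. Without that array the order was leucine below casein below dairy, with leucine and dairy 0.71 apart and the leucine values just under the remaining casein value. The equal dairy values are exact ties in the deposited table, as occur between at least 2 arrays in 60.8% of genes, so their SD of 0 is no measure of precision. It also enters each SE of Junb below, and those without the second casein array rest on it and on the leucine pair.

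Jun, the founding AP-1 subunit, ran the other way. It stood at 7.84 and 7.19 with casein, 8.10 and 8.51 with dairy, and 8.24 and 8.54 with leucine. Both casein arrays lay below all 4 other arrays, and the second casein array, on which Fos and Junb were highest, was the lowest for Jun. There it was 2.08-fold under the mean of the other 5 arrays, and 123 genes lay further below their mean.

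Atf3, a leucine zipper repressor induced by stress and by amino acid shortage, was spread within every diet. It stood at 4.38 and 5.70 with casein, 4.54 and 5.54 with dairy, and 4.80 and 5.37 with leucine. The 3 diet means, 5.04 ± 0.94, 5.04 ± 0.71 and 5.09 ± 0.40 (SD, n = 2 each), lay far closer together than the arrays of any one diet.

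**Figure D1:**
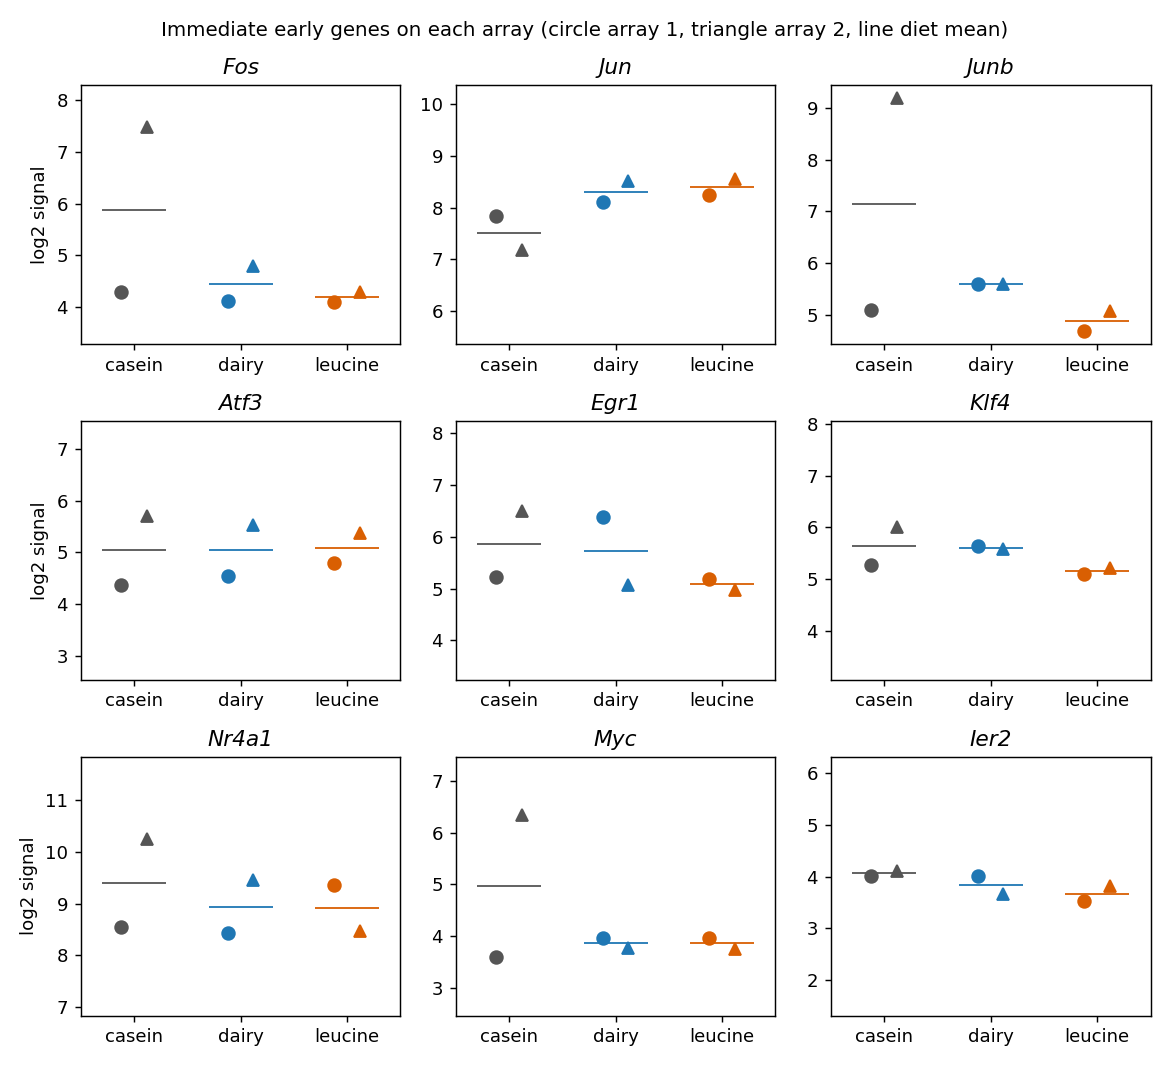
Deposited log2 signal of each of 9 immediate early genes (y axis, 5 log2 units in every panel) on the 6 arrays, grouped by diet (x axis). Circles are array 1 and triangles array 2 of a diet, and lines are diet means of 2 arrays. Junb, Fos and Myc have a lone high point on the second casein array, at 9.19, 7.48 and 6.33, while Jun has its lowest point there, at 7.19.

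Among the zinc-finger factors, Egr1, which is a direct target of serum response factor, stood at 5.23 and 6.50 with casein, 6.38 and 5.08 with dairy, and 5.18 and 4.98 with leucine. High values therefore appeared on 1 casein array and 1 dairy array, while the other 4 arrays fell between 4.98 and 5.23. Klf4, a factor of differentiation and of macrophage and vessel responses, stood at 5.27 and 6.01 with casein, 5.64 and 5.58 with dairy, and 5.11 and 5.23 with leucine. Both leucine values were the lowest of the 6, and the SD within the dairy and leucine groups was 0.04 and 0.09. Its second row, which was not used, stood at 4.80, 4.70, 4.47, 4.70, 4.29 and 4.68 in the same order of arrays and had no high value on the second casein array, so the 2 rows disagreed there.

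Nr4a1, a nuclear receptor that muscle induces on adrenergic stimulation and that supports glucose and fat use, stood at 8.55 and 10.25 with casein, 8.43 and 9.45 with dairy, and 9.35 and 8.48 with leucine. The second casein array was again the highest, at 2.63-fold the mean of the others, but each of the other diets also had 1 array above 9 and 1 below it. Myc, which drives ribosome production and growth, stood at 3.60 and 6.33 with casein, 3.96 and 3.77 with dairy, and 3.96 and 3.76 with leucine. Its 5 lower values spanned 0.36, and the second casein array was 5.73-fold above their mean. Each of these 5 lay under the median of the genes measured on its array, 4.06 to 4.15. Ier2 stood at 4.02 and 4.11 with casein, 4.02 and 3.67 with dairy, and 3.52 and 3.81 with leucine, with the smallest range of the 9 genes, 0.58.

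The second casein array was the highest of the 6 for 8 of the 9 members, where 21.5% of all genes were highest on it, and more than 2-fold above every other array for Fos, Junb and Myc, against the 1.22% of genes given above. Jun was the exception. No member (0 of 9) was more than 2-fold below every other array there, as 0.441% of genes were. Members also paired differently without it: of 36 pairs of members, 7 had a Pearson correlation above 0.8 over the 6 arrays, 2 over the 5 other arrays, and 1 pair in both sets, Junb with Klf4, at 0.90 and 0.98. Fos and Junb correlated at 0.98 over all arrays and 0.52 without it, and Fos and Myc at 0.96 and −0.45. Jun correlated with Atf3 at −0.08 over 6 arrays and 0.96 over 5. These values describe few arrays that share a table and diets, and they rest on the second casein array wherever they change without it. The Klf4 values are those of the row used. Its second row, which had no high value on the second casein array, was not correlated with the members. The share of all gene pairs above 0.8 was not computed, so the counts of pairs are no result about the members.

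The first comparison addressed what free leucine in place of part of the casein changed. Of the 9 members 2 had a log2 difference above 0 against casein and 7 below, where 49.1% of all genes were above, and their median was −0.48, against 0.00 for all genes. Without the second casein array 4 were above 0 and 5 below, and the median was −0.10. No member passed an adjusted p of 0.05 by limma, a linear model with moderated variances, and neither did any other gene (0% of 14506). The lowest adjusted p was 0.468 among the members and 0.353 among all genes, and 1394 genes, or 9.61%, had an unadjusted p under 0.05.

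Jun had the smallest p of the members in that comparison. It was 1.84-fold higher with leucine, a log2 difference of 0.88 ± 0.28 (SE, n = 2 arrays each, 95% interval 0.12 to 1.65), with an unadjusted p = 0.0323 and an adjusted p = 0.468 by limma. Both leucine arrays lay above both casein arrays, and without the second casein array the difference was 0.56 ± 0.26. Jun was the member whose arrays lay wholly higher, where 15.9% of genes did so. Fos, Junb, Egr1, Ier2 and Klf4, 5 of the 9, lay wholly lower, where 15.6% of genes did so. For all of these but Ier2 the margin to the first casein array was narrow. The higher leucine value was 4.291 against 4.295 for Fos and 5.07 against 5.09 for Junb. It was 5.18 against 5.23 for Egr1 and 5.23 against 5.27 for Klf4.

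Most of the size of those lower values came with 1 array. The log2 difference of Junb was −2.26 ± 1.40 with all arrays and −0.21 ± 0.20 without the second casein array. That of Fos was −1.69 ± 1.11 and then −0.10 ± 0.35. Egr1 stood at −0.78 ± 0.62 and −0.15 ± 0.67, and Klf4 at −0.48 ± 0.26 and −0.11 ± 0.08. Ier2, at −0.39 ± 0.17 and −0.35 ± 0.23, was the member least moved by leaving that array out.

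In Myc and Nr4a1 the sign depended on the same array. Myc stood at −1.11 ± 0.93 and then at 0.26 ± 0.15, and Nr4a1 at −0.48 ± 0.74 and then at 0.37 ± 0.68. Atf3 stood at 0.05 ± 0.60 and then at 0.71 ± 0.58, and turned to −0.61 without the first casein array and to −0.24 without the second leucine array. Differences above 2-fold were found for Fos, Junb and Myc, 3 of 9 members against 1.47% of genes, and for 0 members, against 0.910% of genes, without the second casein array.

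The second comparison addressed complete dairy protein in place of casein and used the same casein arrays. Of the 9 members 1 had a log2 difference above 0 and 8 below, where 51.2% of all genes were above, with a median of −0.22. Without the second casein array 8 of 9 were above 0, with a median of 0.39, so the direction of the group was set by which casein array was used. No member and no other gene (0%) passed an adjusted p of 0.05 by limma, the lowest adjusted p being 0.833, and 696 genes, or 4.80%, had an unadjusted p under 0.05.

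Jun was again the member with the smallest p, 1.73-fold higher with dairy at 0.79 ± 0.28 (95% interval 0.03 to 1.56, unadjusted p = 0.0450, adjusted p = 0.833 by limma). Its dairy arrays lay wholly above its casein arrays, as in 11.5% of genes, and the difference was 0.47 ± 0.26 without the second casein array. Junb moved from −1.55 ± 1.40 to 0.50 ± 0.20 when that array was left out. Fos moved from −1.43 ± 1.11 to 0.16 ± 0.35, and Myc from −1.10 ± 0.93 to 0.26 ± 0.15. These were the 3 members with differences over 2-fold, against 0.938% of genes, and without that array 0 members had them, against 0.400% of genes. Klf4 moved from −0.04 ± 0.26 to 0.33 ± 0.08, Nr4a1 from −0.46 ± 0.74 to 0.39 ± 0.68, and Egr1 from −0.13 ± 0.62 to 0.50 ± 0.67. The second Klf4 row did not show this rise, as its dairy values, 4.47 and 4.70, were not above its casein values, 4.80 and 4.70. Ier2 stood at −0.22 ± 0.17 and −0.18 ± 0.23, and Atf3, at −0.0034 ± 0.60 and 0.66 ± 0.58, exceeded its SE in the second of these values and not in the first.

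**Figure D2:**
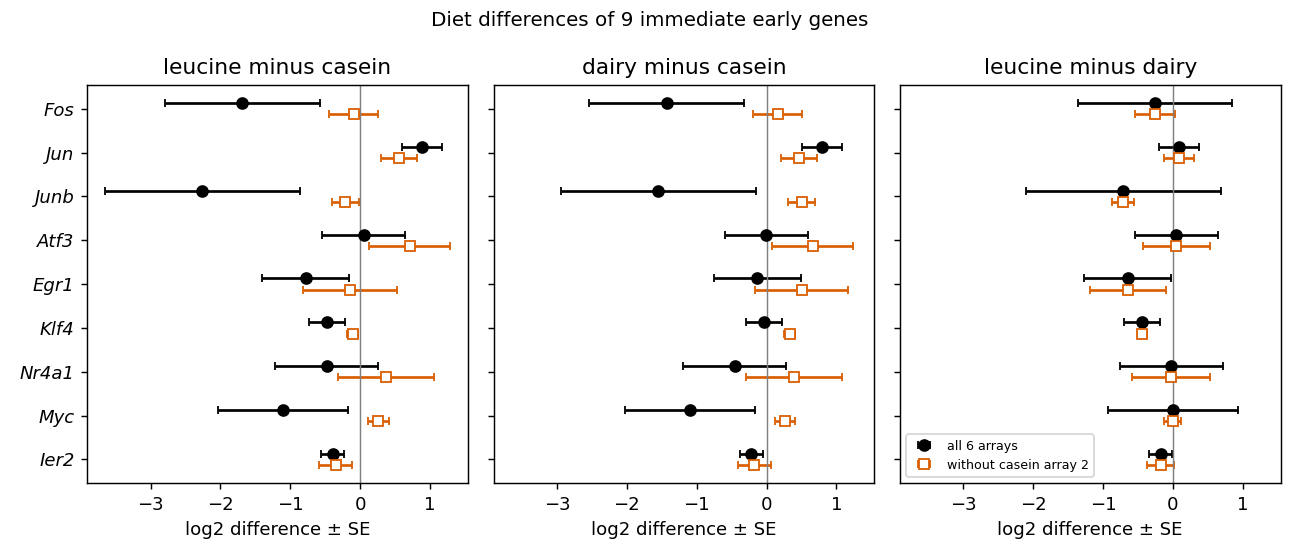
Log2 difference (x axis) of 9 immediate early genes (y axis) in the 3 comparisons of diets, with all 6 arrays (filled circles) and without the second casein array (open squares), with bars for the standard error of the model. Junb against casein moves from −2.26 to −0.21 for leucine and from −1.55 to 0.50 for dairy, and the comparison of leucine with dairy keeps its values.

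Leucine and dairy, compared with each other, do not involve the casein arrays in their means. Of the 9 members 2 had a log2 difference above 0 and 7 below, where 49.0% of genes were above, and the median was −0.17. No member and no other gene (0%) passed an adjusted p of 0.05 by limma, the lowest being 0.903 among the members and 0.514 among all genes, and 827 genes, or 5.70%, had an unadjusted p under 0.05. Klf4, in the row used, and Junb were wholly lower with leucine, 2 of 9 members where 14.9% of genes were. The second Klf4 row did not show this, as its leucine values, 4.29 and 4.68, overlapped its dairy values, 4.47 and 4.70. Differences over 2-fold were found for 0 members, against 0.731% of genes, with or without the second casein array.

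Klf4 stood 1.36-fold lower with leucine at −0.44 ± 0.26 (95% interval −1.14 to 0.26, adjusted p = 0.903 by limma). With the spread taken without the second casein array the same difference had an SE of 0.07 and an adjusted p = 0.512 by limma. Junb stood at −0.71 ± 1.40, with an SE of 0.16 without that array, which draws on the tied dairy values and is a weak measure of precision. Its interval with all arrays, −4.47 to 3.05, is wide because the casein arrays enter the shared estimate of the spread. Egr1 stood at −0.65 ± 0.62, Fos at −0.26 ± 1.11 and Ier2 at −0.17 ± 0.17. Jun was 0.09 ± 0.28 apart (95% interval −0.67 to 0.85), Atf3 0.05 ± 0.60, Nr4a1 −0.03 ± 0.74 and Myc −0.0037 ± 0.93, all within their spread.

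Markers of fibroblasts and matrix and of macrophages and leukocytes also stood lower on both leucine arrays. Their part in the lower values of Klf4, in the row used, of Junb and of Egr1, whose leucine and dairy arrays overlapped, was not tested. The log2 summed signal of 19 fibroblast and matrix genes was 11.03 and 10.94 with leucine, 12.45 and 12.02 with dairy, and 11.97 and 12.00 with casein. That of 22 macrophage and leukocyte genes was 9.02 and 8.94 with leucine, 9.69 and 9.63 with dairy, and 9.15 and 10.38 with casein. Not all lists were lower with leucine than with dairy. Of 24 hepatocyte markers 22 were higher and 2 lower, and of 14 slow-fibre genes 11 were higher and 3 lower, where 49.0% of all genes were higher. The hepatocyte sum was 8.25 and 10.85 with leucine and 9.58 and 8.35 with dairy. Only the second leucine array was thus above the dairy arrays.

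Other immediate early genes, from a list of 40 of which 39 were measured, had the high values of the second casein array as well. On that array 34 of the 39 were above the mean of the other 5 arrays, as were 7012 of the 14506 genes measured. The median of the list was 0.66, against 1.13 for the members and −0.0024 for all genes. Over 2-fold above every other array were 10 of the 39, against 1.22% of genes. Nr4a3, a receptor of the same family as Nr4a1, stood at 7.66 there and at 3.5 to 4.70 elsewhere. Nr4a2, the remaining receptor of that family, stood at 6.12 there and at 2.61 to 3.38 elsewhere.

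Zfp36, which destabilises the messages of many early and cytokine genes, stood at 9.90 on that array and at 5.47 to 7.72 elsewhere. Sik1, a kinase induced by cyclic AMP, stood at 8.28 there and at 5.64 to 6.21 elsewhere. Fosl2, the FOS relative known as FRA2, stood at 7.57 there and at 5.51 to 5.96 elsewhere. Not all relatives were high: Jund stood at 6.06 on that array with 5.78 to 6.43 elsewhere, Egr3 at 3.95 with 3.68 to 4.08, and Fosl1 at 3.41 with 3.03 to 3.57.

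Across the diets, 33 of the 39 had a log2 difference below 0 for leucine against casein, with a median of −0.36 that was 0.08 without the second casein array, and 26 of 39 for dairy, with a median of −0.20 that was 0.24 without it. Against dairy, leucine had 28 of 39 below 0 and a median of −0.14. Of all genes, 49.1% were above 0 for leucine against casein, 51.2% for dairy against casein and 49.0% for leucine against dairy. The same shares apply to the list counts below. No gene of the list passed over all genes in any of the 3 comparisons. Bhlhe40, a repressor that is also part of the circadian clock, stood at 9.13 and 9.93 with casein, 9.40 and 9.15 with dairy, and 7.97 and 8.38 with leucine. Its log2 difference of leucine to casein was −1.36 ± 0.32 (adjusted p = 0.399 by limma) and −0.96 without the second casein array. Plk2, a stress-induced kinase, was lower with leucine by −0.79 ± 0.21 against casein and −0.81 ± 0.21 against dairy, and the first value was also −0.79 without that array. Gadd45b, a growth arrest gene, stood at −0.52 ± 0.17 for leucine against casein and −0.35 without that array, and at −0.33 ± 0.17 and −0.15 for dairy. For dairy, Ccn1, a matricellular target of serum response factor, stood at 0.61 ± 0.29 against casein and 0.96 without that array. Srf itself stood at 0.15 ± 0.11 for leucine against casein and 0.25 without it.

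**Figure D3:**
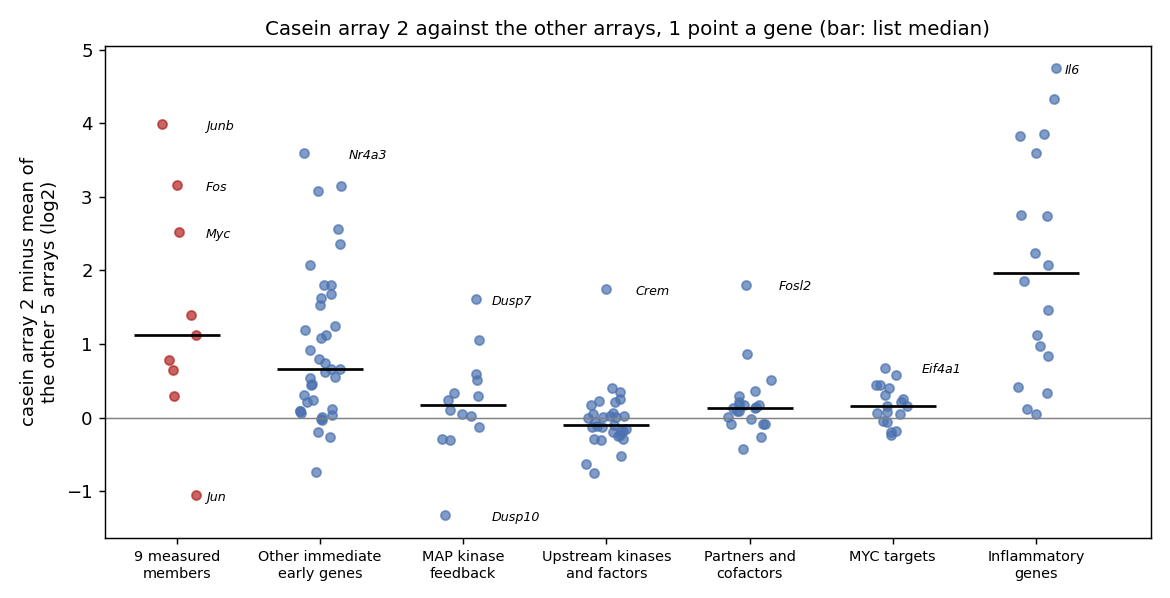
Second casein array minus the mean of the other 5 arrays (y axis, log2) for each gene (point) of the measured members and 6 gene lists (x axis), with bars for list medians. The members have a median of 1.13 with Jun at −1.06, the other immediate early genes 0.66 and the inflammatory genes 1.96, while upstream kinases and factors have a median of −0.11.

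The kinases and factors that switch these genes on were, by contrast, near their other values on that array, with 13 of 31 above the mean of the other arrays and a median of −0.11. Crem, whose ICER form represses CREB sites and is itself inducible, was the 1 gene of that list over 2-fold above all others, at 7.66 against 5.39 to 6.38. Mapk8, which encodes the JUN kinase JNK1, stood at 5.41 and 5.09 with casein, 5.57 and 5.68 with dairy, and 5.99 on both leucine arrays. As with Jun, the casein values were the lowest, and the log2 difference for leucine was 0.74 ± 0.12 (adjusted p = 0.353 by limma), or 0.58 without the second casein array, and for dairy 0.37 ± 0.12, or 0.22 without it. Mapk9, which encodes JNK2, stood at 0.32 ± 0.09 for leucine against casein and 0.39 without that array. Crtc1, a coactivator of CREB, stood at −0.75 ± 0.17 and −0.74. The list had 19 of 31 genes above 0 for leucine and 24 of 31 for dairy against casein, with a median of 0.13 in each (0.11 and 0.10 without that array), 16 of 31 for leucine against dairy, and 0 genes past the threshold.

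Feedback inhibitors of MAP kinases, the dual-specificity phosphatases and Sprouty proteins, had a median of 0.18 on the second casein array over 14 genes. Dusp7 was high there, at 9.43 against 6.92 to 8.64, and Dusp10, which acts on JNK and p38, low, at 5.49 against 6.33 to 7.30. Dusp1, the classic early phosphatase, stood at 8.00 with 7.30 to 8.32 elsewhere. For leucine against casein 7 of the 14 were above 0, for dairy 6 and for leucine against dairy 8, with 0 past the threshold, and the median for leucine against casein was 0.01, or 0.09 without that array.

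Partners and cofactors of the members numbered 21, with a median of 0.13 on the second casein array. Sp1, a general factor that binds GC-rich promoters with EGR and KLF proteins, stood at 5.55 and 5.72 with casein, 5.95 and 6.05 with dairy, and 6.24 and 6.19 with leucine. The 3 diets did not overlap, and the log2 difference was 0.58 ± 0.09 for leucine and 0.36 ± 0.09 for dairy against casein, or 0.66 and 0.45 without the second casein array. Mxd3, a partner of MAX that opposes MYC, stood at −0.40 ± 0.07 and −0.36 ± 0.07 in the same comparisons, or −0.36 and −0.31 without it. Nab2, a corepressor of EGR1, stood at −0.44 ± 0.19 for leucine against casein, or −0.39 without it. In this list 17 of 21 were below 0 for leucine against casein and 16 for leucine against dairy, and 0 passed the threshold. For dairy against casein 10 were above 0, and Mnt, at 4.35 on all casein and dairy arrays, was at 0.

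Of 18 known MYC targets of growth, 13 were above the mean of the other arrays on the second casein array, with a median of 0.16, with Myc itself 5.73-fold above it. None was over 2-fold above all other arrays. Eif4a1, a helicase of translation initiation, had the largest departure, at 8.65 against 7.81 to 8.18. Against casein 13 of 18 were below 0 for leucine and 12 for dairy, and 11 for leucine against dairy, and 0 passed the threshold. Ccnd2, a D-type cyclin, stood at −0.64 ± 0.24 for leucine against casein, or −0.57 without the second casein array, and at −0.84 ± 0.24 against dairy.

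Inflammatory genes that share inducers with the members were above the mean of the other arrays on the second casein array in 18 of 18, with a median of 1.96. Ptgs2 and Sele were above it by 0.11 and 0.05 and not above the highest other array. Over 2-fold above every other array were 11 of the 18, against 1.22% of genes. Il6, the cytokine interleukin 6, stood at 6.97 there and at 2.0 to 2.40 elsewhere, and Socs3, a feedback inhibitor of its receptor, at 7.71 with 3.53 to 4.59 elsewhere. Against casein 18 of 18 were below 0 for leucine and 16 for dairy, with medians of −1.29 and −0.99 that were −0.09 and 0.08 without that array. For leucine against dairy 13 of 18 were below 0, and 0 of the list passed the threshold in any comparison. Thbs1, the matrix glycoprotein thrombospondin 1, did not follow that array: it stood at −1.74 ± 0.18 for leucine against casein, and at −1.69 without it.

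Markers of other cell types moved on the same array, and their part in the members' values was not tested. Of 24 measured hepatocyte markers 23 were highest there, where 21.5% of all genes were highest. The summed log2 signal of these markers was 12.37 on that array against 8.25 to 10.85 elsewhere. Albumin stood at 11.69 there and at 4.81 to 9.80 elsewhere, so it also differed between the other arrays. Of 14 slow-fibre genes 13 were lowest there, where 22.1% of all genes were lowest. The sum of the slow-fibre genes was 12.57 against 13.86 to 14.37, and Myh7, the slow myosin heavy chain, stood at 6.07 against 10.67 to 11.37.

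Macrophage and leukocyte markers were highest on that array in 19 of 22 genes, against 21.5% of all genes, with a sum of 10.38 against 8.94 to 9.69. Neutrophil markers had a sum of 6.38 against 5.97 to 6.04, and 7 of 10 were highest there. S100a9, a calprotectin subunit, stood at 4.27 there and at 2.77 to 2.98 elsewhere, and the granule enzyme gene Mpo at 3.23 with 3.22 to 3.26 elsewhere. Satellite cell markers had a sum of 9.63 against 8.67 to 8.98, with Vcam1 and Sdc4 over 2-fold above all other arrays, but 3 of 9 were highest and 3 lowest there. Myf5 was among the lowest, at 3.87 with 4.22 to 4.60 elsewhere. Sums within the range of the other arrays were found for fibroblasts at 12.00, smooth muscle at 12.17, adipocytes at 8.97 and Schwann cells at 8.22. Fast-fibre genes at 16.06 were at the low end of the other arrays, and endothelial genes at 9.73 and erythroid genes at 8.24 were just under it. Within the fast-fibre list, Myh2, a fast myosin heavy chain, stood at 8.26 against 11.40 to 11.89 elsewhere. It was the 1 gene of the 14 over 2-fold below all other arrays. No marker can be read as at 0 on a log2 intensity scale.

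**Figure D4:**
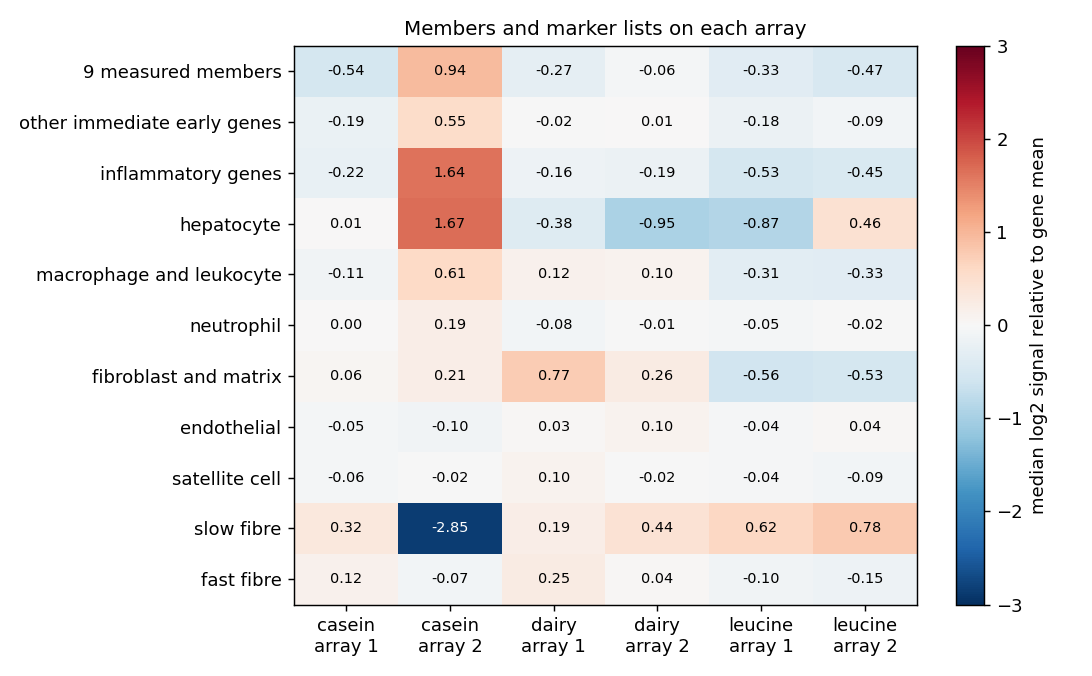
Median log2 signal relative to each gene's mean over the 6 arrays (colour and printed value) for the 9 measured members and 10 gene lists (rows) on each array (columns). On the second casein array the members stand at 0.94, inflammatory genes at 1.64, hepatocyte markers at 1.67 and slow-fibre genes at −2.85.

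Among 2695 genes with a mean over the 6 arrays at or above the median gene and a spread in the top 25%, the 8 whose pattern was most like the mean of the members were Ackr3, Cxcl16, Fosl2, Timp1, Coq8b, Igf1, Bcar1 and Steap4. Their Pearson correlation with that mean was between 0.98 and 0.99 over 6 arrays, and over the 5 arrays without the second casein array it ran from 0.70 for Steap4 to 0.95 for Igf1. Level, spread and pattern were all taken with the second casein array. A gene could therefore enter through its value there, and the likeness is no separate evidence about the members. Ackr3, a scavenging chemokine receptor, stood at 8.83 on the second casein array and at 7.49 to 7.77 elsewhere. Igf1, the insulin-like growth factor, stood at 7.03 there and at 6.0 to 6.38 elsewhere. Timp1, an inhibitor of matrix proteases, stood at 6.48 there and at 3.34 to 3.99 elsewhere, under the median gene of each of those arrays (4.06 to 4.15).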

How the data were processed

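The deposited values are log2 signals, 1 per array and transcript cluster. Per the submitters' processing notes the authors used Expression Console, Affymetrix's own software. Which version and which normalization they chose is not given in the sources used here, and the scale was taken from the range of the values (1.14 to 13.7). Scanner files were not analysed here, and the number of arrays limits the precision. Of 29214 clusters, 15310 carried 1 gene, 323 several, and the rest none. Symbols were updated through the gene identifier (15279), an accession (6) or kept (25). The row with the highest mean was used for each of the 14506 genes, with no filter. All 6 arrays were fitted with limma 3.58.1 in R 4.3.3, with diet as the only term, 3 residual degrees of freedom, and Benjamini-Hochberg adjustment over all genes. The procedure was tested on simulated data.

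Members and gene lists were chosen with earlier results of these data known. All members are named. Of each list, up to 3 genes per direction and comparison with the smallest p and no overlap of arrays could be named, of which some are given, with the 8 genes most like the members; genes singled out on the second casein array were chosen after their values were seen. Replicate numbers did not pair the arrays. Alternatives were quantile normalization, a filter at the median gene, averaged rows, a replicate block, trended robust moderation, the compared arrays alone, and each array left out.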

Additional observations from a re-analysis of the deposited data

How the results depend on the processing

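With 2 arrays a diet, 2-fold differences of single genes are hardly resolved. No member passed an adjusted p of 0.05 by limma under any of the 12 alternatives. Over all genes the count was 0 under the 6 alternatives that kept all arrays of the compared diets, and 0 to 1 with arrays left out, both for leucine against casein and for dairy against casein, the 1 being Il6 in both, without casein array 1. The median over the members ran from −1.33 to −0.10 for leucine against casein and from −0.77 to 0.39 for dairy against casein with arrays left out, and the lowest and highest belong to the fits without casein array 1 and casein array 2. Signs turned with single arrays as follows.

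For dairy against casein the values ran from −3.02 to 0.16 for Fos, −3.60 to 0.50 for Junb, −2.46 to 0.26 for Myc, −1.31 to 0.39 for Nr4a1, −0.78 to 0.52 for Egr1, −0.66 to 0.66 for Atf3 and −0.41 to 0.33 for Klf4. For leucine against casein they ran from −2.47 to 0.26 for Myc, −1.33 to 0.37 for Nr4a1 and −0.61 to 0.71 for Atf3. For leucine against dairy they ran from −0.59 to 0.077 for Fos, −0.11 to 0.29 for Jun, −1.30 to 0.0025 for Egr1, −0.45 to 0.55 for Atf3, −0.35 to 0.0016 for Ier2, −0.54 to 0.48 for Nr4a1 and −0.10 to 0.097 for Myc. Myc also turned there under quantile normalization, to 0.047. The cause was not tested. Ier2 fell out under the filter on dim genes and has no value there. Myc stayed in with a mean of 4.23 over the 6 arrays. Over the 5 arrays without the second casein array, Myc and Ier2 both averaged 3.81.

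The replicate numbers correlated across genes at 0.0865, 0.179 and 0.0536 between diets and were not taken to pair the arrays. With the replicate number as a block 0 genes and 0 members passed in every comparison, and the lowest adjusted p of a member was 0.468 for leucine against casein, 0.783 for dairy against casein and 0.856 for leucine against dairy. The SE of Atf3 was 0.21 with the block and 0.60 without it.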
